A study of Mus musculus with 4 samples.

Results

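Small leucine-rich proteoglycans (SLRPs) are secreted matrix proteins built on a core of leucine-rich repeats, and 10 of their genes are described here as read on arrays from the lymphatic vessels that drained a tumour. The genes were Dcn, Lum, Bgn, Fmod, Ogn, Prelp, Aspn, Podn, Omd and Ecm2. Each probe set that the platform annotation paired with exactly 1 of these symbols was kept, which gave 22 probe sets, and the brightest over the 4 arrays stood for its gene. The arrays measured 18193 genes in this way.

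Many SLRP cores carry chains of chondroitin, dermatan or keratan sulfate. They bind collagen and set the width and spacing of its fibrils, and several also hold growth factors such as TGF-beta in the matrix. Fibroblasts, tendon cells, cartilage, bone and vessel wall cells are their usual sources. In class I stand Dcn (decorin), Bgn (biglycan) and Aspn (asporin, which has an aspartate-rich stretch and no sulfated chain), in class II Lum (lumican), Fmod (fibromodulin), Prelp (prolargin, whose basic end binds heparin) and Omd (osteomodulin, found in bone), in class III Ogn (osteoglycin or mimecan), and outside these classes Podn (podocan) and the decorin-related Ecm2.

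The VEGFD group was 2 arrays from mice with flank tumours of 293EBNA cells, a human embryonic kidney line, that carried a vector with VEGFD, the gene of a growth factor for lymphatic and blood endothelium. The Apex group was 2 arrays from mice whose 293EBNA tumours carried the APEX vector with no insert. In both groups tumours were grown to 2000 mm3, Patent Blue V marked the draining collecting lymphatics, the vessels were microdissected and endothelial cells were sorted with magnetic beads, although 1 protocol speaks of lymph node endothelium. The sample titles call the 2 arrays of a group biological replicates. The sources used here give no strain, age or number of mice behind an array. The p-values therefore measure only the spread between the 2 arrays of a group.

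The arrays did not all carry the markers of their label. The summed signal of 12 pan-endothelial markers was 446 and 313 on VEGFD replicates 1 and 2, against 409.9 and 3858 on Apex replicates 1 and 2, so 1 Apex array stood apart. Pecam1, which encodes CD31, was at 3.25 and 2.22 on the VEGFD arrays, against 2.92 and 141 on the Apex arrays. Of 9 lymphatic markers 8 were measured, and their sum was 1528 and 2124 on the VEGFD arrays, against 1142 and 2582 on the Apex arrays. Within that list the regulator Prox1 was at most 5.94 on VEGFD arrays and 11.6 on Apex arrays, while Pdpn, which encodes podoplanin, had 1237 and 1715 on the VEGFD arrays, against 963 and 1622 on the Apex arrays. Fibroblast markers, 13 genes that leave out the SLRP genes, summed to 39505 and 38007 on the VEGFD arrays, against 39365 and 41412 on the Apex arrays. Bright genes weigh most in these sums. In such bulk samples fewer cells of a type and less RNA per cell cannot be told apart.

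Ecm2, Aspn, Omd and Ogn follow each other on chromosome 13 when the protein-coding genes of the GRCm38.p6 reference table are ordered by position. That order does not show whether another gene overlaps this stretch. Dcn and Lum are neighbours on chromosome 10, and Prelp and Fmod on chromosome 1. RefSeq promoter sequences were found for 8 genes. Dcn and Lum had none in that table. The 250 bases before the start of 4 genes are shown because the signals of Ogn and Omd separated the groups, that of their neighbour Aspn differed most between the VEGFD arrays, and that of Bgn, on chromosome X, varied little. All 4 are read 5′ to 3′ on the plus strand of GRCm38.p6. The windows are chr13:49607765-49608014 for Ogn, chr13:49582212-49582461 for Omd, chr13:49544193-49544442 for Aspn and chrX:73483351-73483600 for Bgn. Capitals mark matches, on either strand, to 6 motifs, namely the TATA box TATAAA, the E-box CANNTG, the AP-1 site TGANTCA, the TEAD site GGAATG, the CCAAT box CCAAT and the GC box GGGCGG.
Ogn: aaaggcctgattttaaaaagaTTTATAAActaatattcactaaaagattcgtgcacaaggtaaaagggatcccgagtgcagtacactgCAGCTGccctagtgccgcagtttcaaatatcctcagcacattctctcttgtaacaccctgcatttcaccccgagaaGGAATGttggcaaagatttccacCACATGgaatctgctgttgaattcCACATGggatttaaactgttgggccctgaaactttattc
Omd: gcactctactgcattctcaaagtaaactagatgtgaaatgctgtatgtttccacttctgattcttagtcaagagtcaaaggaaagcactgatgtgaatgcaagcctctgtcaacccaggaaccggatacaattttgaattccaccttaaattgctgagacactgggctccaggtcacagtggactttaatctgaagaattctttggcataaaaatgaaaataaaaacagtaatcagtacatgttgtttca
Aspn: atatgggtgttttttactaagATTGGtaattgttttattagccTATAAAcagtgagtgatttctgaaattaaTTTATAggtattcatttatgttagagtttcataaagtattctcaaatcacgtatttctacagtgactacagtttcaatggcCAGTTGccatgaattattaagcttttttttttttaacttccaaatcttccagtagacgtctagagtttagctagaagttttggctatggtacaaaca
Bgn: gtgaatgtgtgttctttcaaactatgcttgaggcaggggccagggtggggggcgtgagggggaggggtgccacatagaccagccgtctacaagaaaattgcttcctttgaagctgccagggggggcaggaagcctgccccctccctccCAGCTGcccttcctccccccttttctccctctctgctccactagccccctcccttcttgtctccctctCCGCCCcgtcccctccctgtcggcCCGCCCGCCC
The Ogn window held 3 E-boxes, 1 TEAD site from -86 to -81 and overlapping TATA box matches on the 2 strands between -229 and -222, counted back from the start. The Omd window held none of the 6 motifs. The Aspn window held 2 TATA box matches, 1 E-box and 1 CCAAT box, and that of Bgn 3 GC boxes and 1 E-box, with the last 2 GC boxes overlapping. Among all 32851 windows of this length in the table, 66.2% held an E-box, 12.6% a TEAD site, 12.4% a TATA box, 33.8% a CCAAT box, 32.7% a GC box and 6.75% an AP-1 site. The share of G and C was 42.0% in Ogn, 38.4% in Omd, 30.0% in Aspn and 40.0% in Ecm2, against 64.4% in Bgn and a median of 52.4% over all windows. These matches are a description of letters and not evidence of binding.

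Values below are linear array signals, or log2(signal + 16), which understates the change of dim genes. A log2 change is VEGFD minus Apex with the standard error (SE) of limma's fit and n = 2 and 2. A gene was tested when its mean log2 value reached the median of the non-control probe sets, equal to a signal of 25.3. Of the 10 genes 9 were tested, among 11680 genes in all, and Lum was too dim. In the limma fit 0 of the 9 passed a Benjamini-Hochberg adjusted p of 0.05 over all genes, and 0% of all tested genes did. At an unadjusted p under 0.05 stood Ogn and Omd, 2 of 9, where 5.7% of all tested genes (666) did. Omd passed the filter only through its Apex arrays, so these counts of 2 of 9 are no support for a difference in the family. The same 2 genes were the members at least 2-fold apart with no overlap between groups, where 3.82% of all tested genes were. Both were lower in VEGFD arrays, as were 2.76% of all genes, and no member was 2-fold higher, as 1.06% were. The 2 of 9 without any overlap between groups stood beside 38.4% of all genes. The median log2 change of the 9 was -0.14, against -0.035 for all tested genes. Centring arrays on their medians moved the median of all genes by 0.12.

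**Figure D1:**
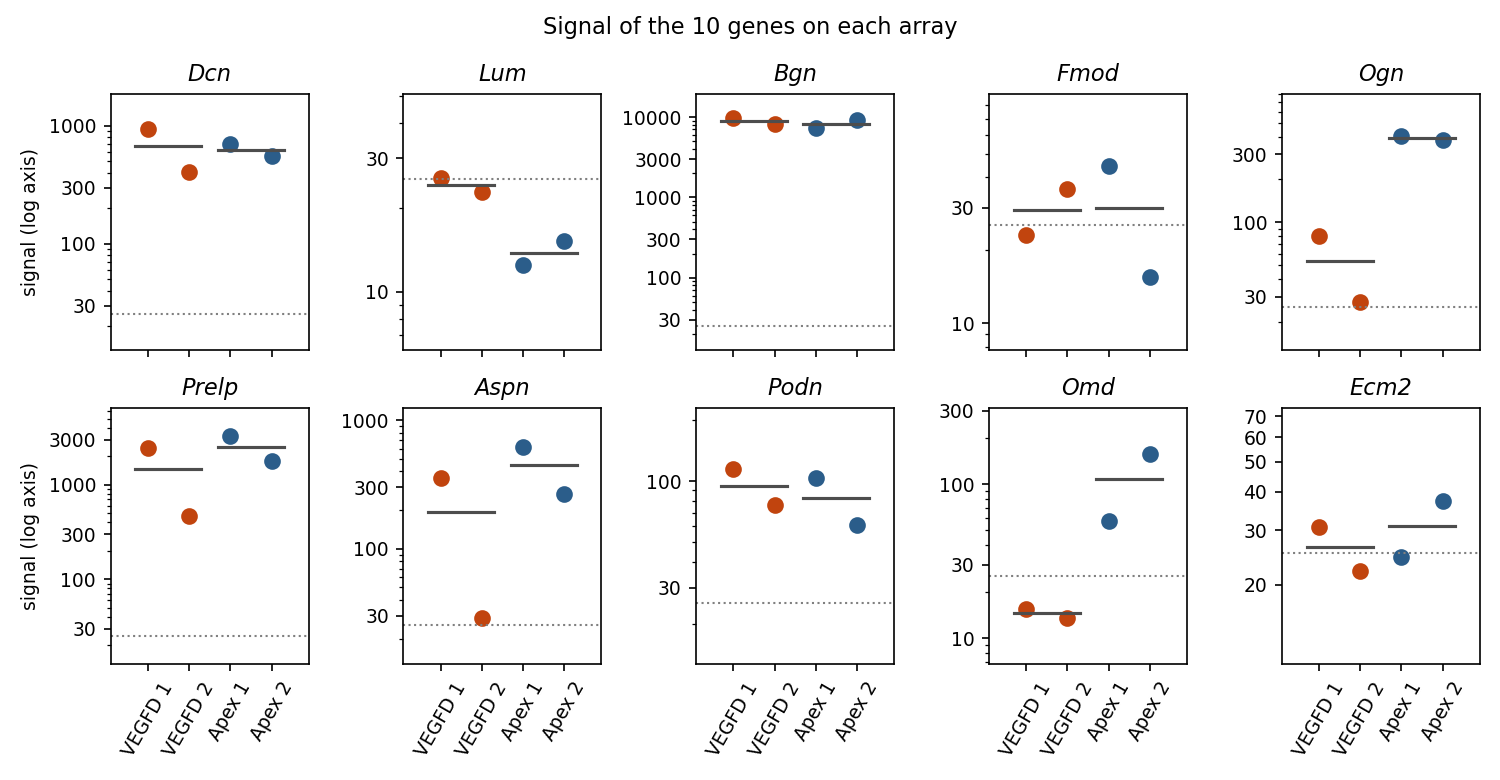
Signal of each of the 10 genes on the 4 arrays (log axis, a scale for each gene), VEGFD arrays in orange and Apex arrays in blue, with a bar at the mean of each pair and a dotted line at the filter signal of 25.3. Ogn and Omd have both VEGFD points under both Apex points, while Bgn lies between 7234 and 9816 on all arrays.

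Ogn, which encodes the small class III protein osteoglycin, had much less signal in the VEGFD arrays. Its signal was 79.7 and 27.3 in VEGFD replicates 1 and 2, against 402 and 379 in Apex replicates 1 and 2. Both VEGFD values lay far under both Apex values, and the Apex values lay close together. The log2 change was -2.66 ± 0.42 (SE, n = 2 and 2; 95% interval -3.71 to -1.60), or 6.31-fold less on that scale, and limma's adjusted p was 0.585. Of all 11680 tested genes 15 had a log2 change at or below this value, Ogn included. A second Ogn probe set read 42.8 and 18.9 in VEGFD arrays, against 200.3 and 155 in Apex arrays, again with no overlap, and its log2 change was -2.09. Without VEGFD replicate 1 the change was -3.23 with a limma adjusted p of 0.00552, a call that rests on the lone VEGFD replicate 2. Without VEGFD replicate 2 it was -2.09 (adjusted p = 0.0744), and without an Apex array it lay between -2.70 and -2.62.

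Omd, which lies beside Ogn and encodes a keratan sulfate protein of mineralised matrix, was the other tested gene whose groups did not overlap. Its single probe set read 15.4 and 13.5 in VEGFD replicates 1 and 2, against 58.0 and 156 in Apex replicates 1 and 2. The Apex array with the high endothelial sum was the highest, and both VEGFD signals were under the filter signal of 25.3, so Omd was tested through its Apex arrays. Its log2 change was -1.89 ± 0.45 (SE, n = 2 and 2; 95% interval -3.04 to -0.75) and limma's adjusted p was 0.821. Leaving out Apex replicate 2 gave -1.28, and leaving out Apex replicate 1 gave -2.50. The size depends on the pseudocount, being -1.06 with 64 and -2.64 with 1.

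**Figure D2:**
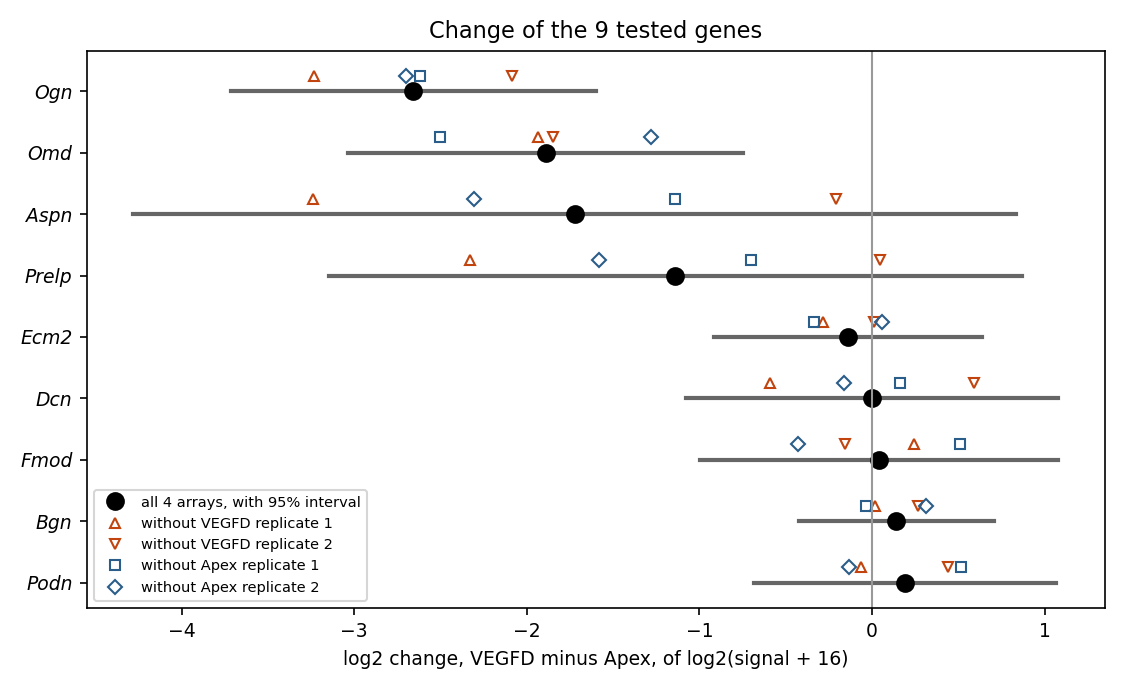
Log2 change, VEGFD over Apex on the log2(signal + 16) scale, of the 9 tested genes, as a dot with its 95% limma interval for all 4 arrays and as open symbols for the fits without 1 array. Ogn (-2.66) and Omd (-1.89) have intervals below 0, and the values of Aspn and Prelp spread widely with the VEGFD array left out.

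Aspn and Prelp had low signals in 1 VEGFD array rather than in both. Aspn, whose product binds collagen and TGF-beta, read 354 and 29.2 in VEGFD replicates 1 and 2, against 623 and 269 in Apex replicates 1 and 2. VEGFD replicate 1 thus lay between the Apex arrays and replicate 2 under all of them. The log2 change was -1.72 ± 1.02 (SE, n = 2 and 2; limma adjusted p = 0.826), against -0.21 when VEGFD replicate 2 was left out and -3.24 when VEGFD replicate 1 was.

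Prelp, the gene of a heparin-binding class II protein thought to anchor basement membrane to connective tissue, showed the same arrangement at brighter signals. It read 2469 and 462 in VEGFD replicates 1 and 2, against 3242 and 1756 in Apex replicates 1 and 2. Its log2 change of -1.14 ± 0.80 (SE, n = 2 and 2; limma adjusted p = 0.826) became 0.048 with VEGFD replicate 2 left out and -2.33 with VEGFD replicate 1 left out (limma adjusted p = 0.0262). The second probe sets had the same order of arrays, with 216 and 41.7 for Aspn and 626 and 181 for Prelp in the VEGFD arrays, against 297 and 158 for Aspn and 775 and 331 for Prelp in the Apex arrays. The log2 changes of these second probe sets, -1.02 for Aspn and -0.56 for Prelp, were smaller than those of the brighter ones. Without VEGFD replicate 1, Ogn, Prelp and Aspn passed, 3 of 9, where 2.09% of all tested genes passed as lower. That fit holds no spread between VEGFD arrays.

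The VEGFD arrays differed from each other in several SLRP genes. VEGFD replicate 1 exceeded replicate 2 in signal by 12.1-fold for Aspn, 5.34-fold for Prelp, 2.92-fold for Ogn and 2.32-fold for Dcn. These were the 4 of 9 genes at least 2-fold lower in replicate 2 on the log2(signal + 16) scale, where 6.47% of all tested genes were, and 11.9% were 2-fold apart in either direction. Between the Apex arrays, Aspn and Omd were 2-fold apart, 2 of 9, beside 4.89% of all tested genes, Aspn being higher in replicate 1 and Omd in replicate 2. Among markers of other cells, VEGFD replicate 2 also had the highest sum of 10 smooth muscle and pericyte markers. That sum was 7395 and 17375 in VEGFD replicates 1 and 2, against 4783 and 5639 in Apex replicates 1 and 2. Between the groups, 5 of its 8 tested genes were higher in VEGFD. Acta2, at 8802, and Tagln, at 5553, made most of the sum in VEGFD replicate 2. The list was not uniform between the VEGFD arrays. Acta2, Tagln, Myl9, Cnn1, Cspg4, Des and Myh11 were higher in replicate 2 than in replicate 1, and Rgs5, Mcam and Notch3 were lower. The part of smooth muscle cells and pericytes in the SLRP values was not tested.

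**Figure D3:**
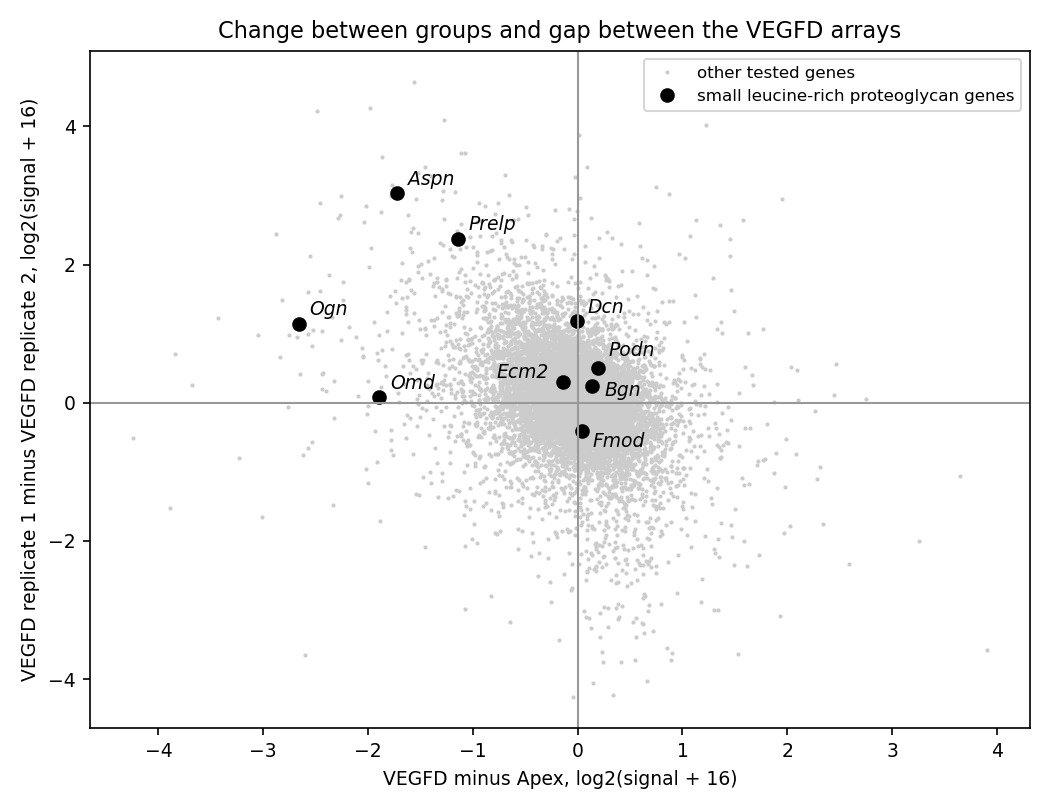
Each tested gene by its change between groups (horizontal) and by VEGFD replicate 1 minus VEGFD replicate 2 (vertical), both on the log2(signal + 16) scale, with the 9 SLRP genes in black. Aspn and Prelp stand high on the vertical axis, Ogn and Omd far to the left, and Bgn, Podn, Ecm2 and Fmod near the middle.

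Bgn and Dcn, whose proteins carry chondroitin or dermatan sulfate chains and bind fibrillar collagen, overlapped between groups. Bgn read 9816 and 8253 in VEGFD replicates 1 and 2, against 7234 and 9204 in Apex replicates 1 and 2. The log2 change was 0.14 ± 0.22 (SE, n = 2 and 2; limma adjusted p = 0.905), and its 95% interval of -0.42 to 0.71 leaves out a 2-fold change either way. The 3 Bgn probe sets had log2 changes of 0.13 to 0.22. The highest signal of any probe set on an array was 9945 to 15171, and whether signals near the top are compressed was not tested.

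Dcn read 939 and 405 in VEGFD replicates 1 and 2, against 695 and 551 in Apex replicates 1 and 2, so the VEGFD arrays lay on either side of the Apex arrays. Its log2 change was -0.0018 ± 0.43 (SE, n = 2 and 2; limma adjusted p = 0.998), and the 95% interval of -1.08 to 1.08 does not leave out a 2-fold change. Leaving out VEGFD replicate 2 gave 0.59, and leaving out VEGFD replicate 1 gave -0.59. A second Dcn probe set was dim, at 13.2 and 3.65 in VEGFD arrays and 11.5 and 12.3 in Apex arrays.

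The remaining SLRP genes were dim or overlapped. Podn, the podocan gene, read 114 and 75.9 in VEGFD replicates 1 and 2, against 104 and 60.6 in Apex replicates 1 and 2, with a log2 change of 0.19 ± 0.35 (SE, n = 2 and 2) that was -0.13 without Apex replicate 2. Ecm2 read 30.8 and 22.1 in VEGFD arrays, against 24.5 and 37.3 in Apex arrays, on both sides of the filter signal, with a log2 change of -0.14 ± 0.31 (SE, n = 2 and 2). Its other probe set was under 1 on every array. Lum, the neighbour of Dcn, read 25.5 and 22.7 in VEGFD replicates 1 and 2, against 12.4 and 15.2 in Apex replicates 1 and 2. Both VEGFD values of Lum lay above both Apex values at a signal around the filter, and with no filter its log2 change was 0.43 (limma adjusted p = 0.842).

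Fmod, which encodes a collagen-binding keratan sulfate protein, gave different answers by probe set. The brightest read 23.1 and 35.7 in VEGFD replicates 1 and 2, against 44.4 and 15.5 in Apex replicates 1 and 2, and had a log2 change of 0.043 ± 0.41 (SE, n = 2 and 2; limma adjusted p = 0.983). The other 5 of its 6 probe sets were all lower in VEGFD, with log2 changes of -0.58 to -0.11, and 4 of them had no overlap between groups. All 5 lay under the filter and were not tested. Over all 22 SLRP probe sets, 8 were lower in VEGFD without overlap, beside 21.4% of all 34945 single-gene probe sets, and 1 was higher, beside 16.1%. Probe sets of a gene are not independent, and 4 of the 8 belong to Fmod. The Ecm2 probe set under 1 on every array, with a log2 change of -0.027, is also among the 8.

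**Figure D4:**
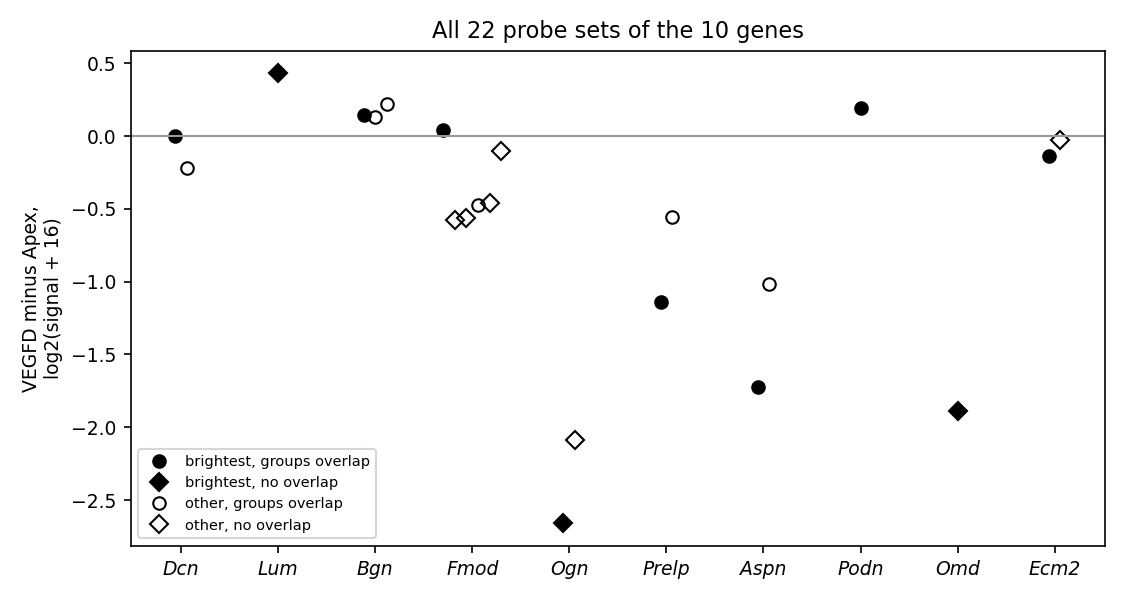
Log2 change, VEGFD over Apex on the log2(signal + 16) scale, of all 22 probe sets, filled for the brightest of a gene and as diamonds where the groups do not overlap. The probe sets of Ogn, Prelp, Aspn and Bgn have the same sign within each gene, and those of Fmod do not.

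Over the 4 arrays, the tested genes outside the family with the nearest pattern to Ogn, by Euclidean distance between mean-centred log2 values, were Cst6 (0.14), Cdh13 (0.25) and Angptl7 (0.33). Cst6, the gene of a protease inhibitor, read 256 and 121 in VEGFD arrays, against 1178 and 1079 in Apex arrays. Nearest to Omd were Ramp2 (0.20), Cd9 (0.21) and Itih2 (0.27). Nearest to Aspn were Ccn5 (0.19), 4930486L24Rik (0.45) and C1ra (0.55), and Ccn5, which encodes a matricellular protein, read 1038 and 120.3 in VEGFD arrays, against 1639 and 718 in Apex arrays. Within the family the distance from Aspn to Prelp was 0.77 and that from Ogn to Omd 1.41.

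Marker lists of other cell types had the following values beside Ogn and Omd. Over all tested genes, 53.7% were lower in VEGFD. All 8 tested pan-endothelial markers were lower too, with a median log2 change of -0.61. Of 8 adipocyte markers 6 were measured, and their sum was 1217 and 1236 in VEGFD arrays, against 2093 and 4576 in Apex arrays, with all 4 tested genes lower. Fabp4 alone made 1098 and 1047 of that sum in VEGFD arrays, against 1741 and 4073 in Apex arrays. Of 11 tendon and cartilage markers, all measured, the sum was 1330 and 671 in VEGFD arrays, against 1203 and 1272 in Apex arrays, with all 4 tested genes lower. Col11a1 alone made 1011 and 489 of that sum in VEGFD arrays, against 723 and 896 in Apex arrays. Col9a1, which was not tested, was higher, with 27.4 and 19.3 in VEGFD arrays, against 6.84 and 9.89 in Apex arrays. Of 7 epithelial markers, all measured, the sum was 237 and 150.1 in VEGFD arrays, against 393 and 499 in Apex arrays, with 4 of 5 tested genes lower. The sum of 8 leukocyte markers was 551 and 712 in VEGFD arrays, against 677 and 622 in Apex arrays, with 2 of 4 tested genes lower. Within the fibroblast list, 6 of 11 tested genes were higher and 5 lower, with a median log2 change of 0.046. Among the lower was Dpt, with 204 and 168 in VEGFD arrays, against 2725 and 2407 in Apex arrays. Among the higher was Mfap5, with 5741 and 5476 in VEGFD arrays, against 4144 and 2366 in Apex arrays. The part of these cell types in the SLRP values was not tested.

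The genes that build the sulfated chains of SLRPs showed no common direction. Of 22 genes of chondroitin and dermatan sulfate chains 18 were tested, of which 9 were higher and 9 lower in VEGFD, with 0 passing limma and a median log2 change of -0.0060. Chst11, a chondroitin sulfotransferase gene, was the single one 2-fold apart without overlap. It read 516 and 1526 in VEGFD replicates 1 and 2, against 461 and 413 in Apex replicates 1 and 2. Its log2 change was 1.0 ± 0.51 (SE, n = 2 and 2), against 0.24 without VEGFD replicate 2 and 1.77 without VEGFD replicate 1. Chsy1, a chain polymerase gene, had a log2 change of 0.72 ± 0.30, and 0.40 to 1.04 with 1 array left out. The change of Dse, the gene of a dermatan epimerase, was 0.35 ± 0.29, and 0.12 to 0.57 with 1 array left out. Chst14, a dermatan sulfotransferase gene, had -0.32 ± 0.27, and -0.57 to -0.062 with 1 array left out. Xylt1 was not analysed here.

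Of 11 keratan sulfate and sulfate supply genes 9 were tested, 4 higher and 5 lower with a median of -0.076 and 0 passing. The largest sizes of change were -0.71 ± 0.61 for Chst1, a keratan sulfotransferase gene, which ran from -1.46 without VEGFD replicate 2 to 0.046 without VEGFD replicate 1, and 0.37 ± 0.22 for the galactosyltransferase gene B4galt1. Papss2, which makes the sulfate donor, had -0.076 ± 0.41, with -0.65 without Apex replicate 2 and 0.50 without Apex replicate 1. Of 12 other matrix proteoglycan genes 7 were tested, 2 higher and 5 lower with a median of -0.087 and 0 passing. Vcan, the versican gene, had -0.49 ± 0.30, and -0.77 to -0.20 with 1 array left out. The endothelial proteoglycan gene Esm1 had -1.17 ± 1.28, with -3.21 without Apex replicate 1 and 0.87 without Apex replicate 2, the array where it read 311 against 3.37 on the other Apex array. The basement membrane gene Agrn had 0.61 ± 0.52, with -0.096 without Apex replicate 2 and 1.32 without Apex replicate 1. Of 8 further SLRP family genes only Nyx was tested (0.079 ± 0.30).

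The list of ligands, receptors and processing enzymes of SLRPs held 26 symbols, of which Wisp1 and Ccn4 name the same gene. Of these symbols 25 were measured and 24 tested, 11 higher and 13 lower with a median of -0.036 and 0 passing. Tll1, whose product can cleave the propeptide of biglycan, was the single one 2-fold apart without overlap. It read 169 and 695 in VEGFD replicates 1 and 2, against 85.6 and 152 in Apex replicates 1 and 2. Its log2 change was 1.47 ± 0.67 (SE, n = 2 and 2), against 0.50 without VEGFD replicate 2 and 2.44 without VEGFD replicate 1. Bmp1, the gene of a related protease, had 0.27 ± 0.33, with -0.034 without Apex replicate 2 and 0.58 without Apex replicate 1. Col1a1, which encodes a chain of the collagen that decorin binds, had 0.82 ± 0.55, with 0.066 without Apex replicate 2 and 1.58 without Apex replicate 1. Tgfb1 had 0.38 ± 0.79, and its values with 1 array left out ran from -0.66 without VEGFD replicate 2 to 1.42 without VEGFD replicate 1. Col5a2 and Itgb1, chosen after their values were seen, did not overlap, with 0.87 ± 0.24 and 0.94 ± 0.22 and limma adjusted p of 0.825 and 0.773. Among all tested genes 38.4% did not overlap. In the same list Ccn4 (0.96) was also higher without overlap, while Tgfb2 (-0.63) and Tgfb3 (-0.54) were lower without overlap.

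**Figure D5:**
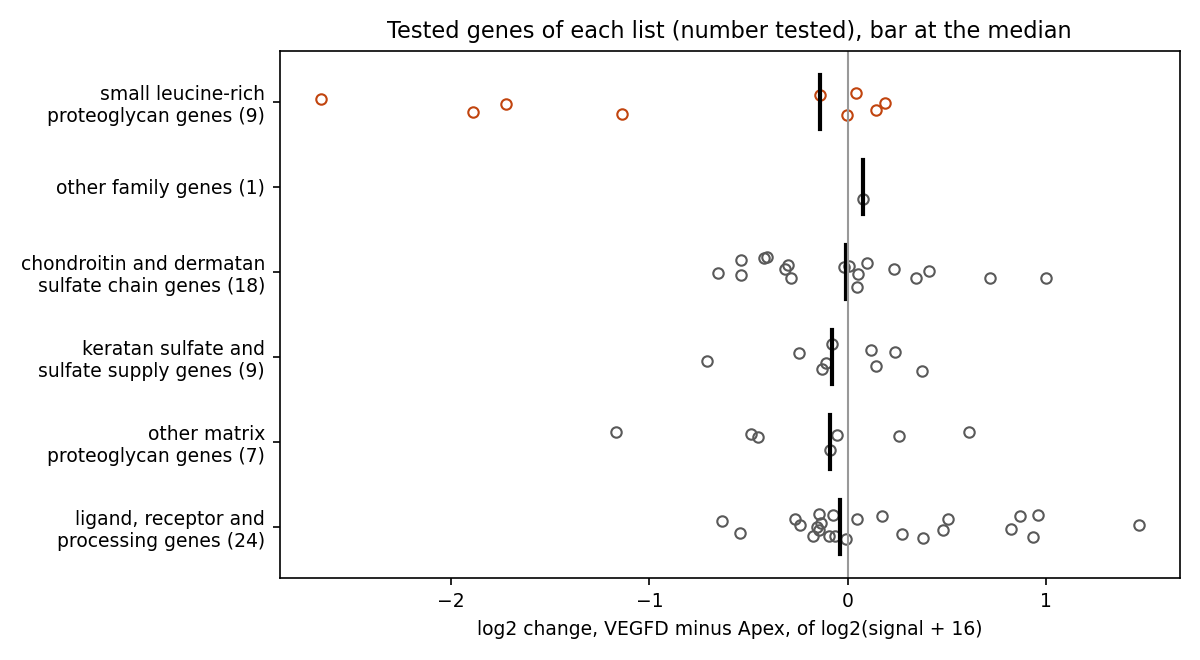
Log2 change, VEGFD over Apex on the log2(signal + 16) scale, of the tested genes of each list, 1 circle a gene, spread vertically for display only, with a bar at the median. The SLRP list has a median of -0.14 with 4 genes below -1, and the other medians lie between -0.087 and 0.079.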

How the data were processed

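The authors deposited linear signal intensity, 1 value per probe set. The sources used here do not give the algorithm behind these signals. The deposited intensity of every array averaged 150.0 after trimming 2% of probe sets at each end. No detection calls were used, and the number of arrays, 2 in each group, limits the precision. Of 45101 probe sets, 64 were controls, 34945 had 1 gene symbol, 932 several and 9160 none here. Median signals were 26.3 and 23.8 on the VEGFD arrays, against 27.0 and 30.4 on the Apex arrays.

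A gene took the values of its brightest probe set by mean log2(signal + 16), the same ones for all 10 genes if chosen by mean signal. Genes at or above the median of non-control probe sets entered lmFit and eBayes (with trend) of limma 3.58.1, R 4.3.3, in a two-sided test adjusted by Benjamini-Hochberg over 11680 genes. The procedure was tested on simulated data. An exact permutation test of 2 arrays against 2 cannot go below p = 0.333. Alternatives changed scaling, pseudocount, filter, probe set rule, intensity trend and replicate block, or left out an array.

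The members and lists were chosen with earlier results of these data known. All 10 genes were named, 8 fixed genes from the related lists, and from each list the genes at least 2-fold apart without overlap (up to 4) or else the 2 largest changes. Motifs were counted in the RefSeq windows of GRCm38.p6. The sources used here name no genome build for the arrays.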

Additional observations from a re-analysis of the deposited data

How the results depend on the processing

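With 2 arrays in a group, a miss at the threshold says little about whether a gene differs. Ogn, Omd and Aspn kept a negative sign in every alternative that tested them, but several of these could not turn it. The filter, intensity trend and replicate block leave the log2 change of a gene as it is. Leaving out an array cannot turn the sign of Ogn or Omd, whose groups do not overlap. With the stricter filter, a signal of at least 134, only 5 of the genes were tested, with a median of -1.14. Fmod, Podn, Omd and Ecm2 dropped out, and the log2 changes of the 5 were those given above. That median thus moved only by which genes were left. Ogn, with both VEGFD signals under 134, was kept through its Apex arrays. With averaged probe sets 7 were tested, with a median of -0.85, and Fmod and Ecm2 dropped out. Leaving out an array can end an overlap between groups but cannot create one. The 3.82% of all tested genes 2-fold apart without overlap belongs to the fit of all 4 arrays. No such share is given here for fits without 1 array. Their counts of SLRP genes apart therefore say nothing about the family. With 1 array left out, 0 to 3 SLRP genes passed limma, 2 to 4 were 2-fold apart without overlap, their median ran from -0.59 to 0.0089, and 0 to 390 of all genes passed, reaching 390 when VEGFD replicate 1 was dropped and 4 when VEGFD replicate 2 was.

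The replicate block, the shared replicate number as a term, gave 6 genes passing over all and 0 of the SLRP genes, with a limma adjusted p of 0.111 for Ogn and 0.328 for Omd. The labels do not say that numbers pair the arrays. Deviations of same-numbered arrays had a correlation of 0.20 over genes, from 2 pairs.

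Small changes turned sign. Dcn was 0.12 with centred arrays and 0.0057 with a pseudocount of 64. With 1 array left out the changes ran from -0.59 to 0.59 for Dcn, -0.032 to 0.31 for Bgn, -0.43 to 0.51 for Fmod, -0.13 to 0.51 for Podn, -0.34 to 0.060 for Ecm2 and -2.33 to 0.048 for Prelp. The cause of these turns was not tested.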
